A study of Mus musculus with 4 samples.

Results

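The genes described here were 7 of the 21495 genes in the table: Bcl2l11, E2f1, Rbl2, Tgfbr2, Mylip, Cyld and Zbtb4. They were chosen by name, as well-known targets of the miR-17~92 microRNA cluster, and the rule uses no measured value, but the choice was made with earlier results of these data known. MicroRNAs are short RNAs that guide the Argonaute protein to matching sites, mostly in the 3′ untranslated region (3′ UTR) of mRNAs, where pairing of the seed (bases 2 to 8) lowers translation and shortens the life of the mRNA. The miR-17~92 cluster is transcribed as a single precursor and is known for sustaining proliferation and survival in embryonic tissue and tumours. Its targets include brakes on the cell cycle, a trigger of apoptosis and a receptor of the TGF-beta pathway.

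Mouse gonads with the attached mesonephros were profiled as single cells with 10x Genomics 3′ chemistry, in 4 samples and 1 sample per group. The XY control (E11.5) came from unedited G4 embryonic stem cells, labelled C57BL/6 x 129S4/SvJae, and the E11.5 KO and the E11.75 KO, both XY, came from G4 cells in which both copies of the cluster had been deleted with CRISPR/Cas9. The embryos of these 3 samples were made by tetraploid complementation, so that embryos of a sample are isogenic, whereas the XX control (E11.5) was bred from C57BL/6J males and 129 females. Each library pooled the gonads of several embryos, and the deletion was carried by all cells of a KO embryo. No group had replicates, so that no p-value is given, and all 95% intervals below are exact and cover counting error only.

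The samples held 3669 to 23527 cells and 37841392 to 105192238 UMIs (unique molecular identifiers, each counting 1 captured mRNA). Cells of the XX control were deeper, with a median of 15509 UMIs per cell against 3893 to 4763 in the other samples. Pairs of libraries shared 1 to 40 cell barcodes, at most 0.687% of the smaller library. The deposited annotation of 13 cell types was used, with some types renamed here. Bipotential progenitors became pre-supporting cells, Supporting became Sertoli cells and Epithelial became coelomic epithelium. Interstitial cells became interstitial progenitors, PGCs became germ cells and SLCs became supporting-like cells. Of 184 checks of a marker in its type and sample, 156 placed the type among the top 2 types of that sample and 176 placed it above the median of the other types. The exceptions included the Sertoli cells of the XX control, of which there were 2, with Amh, Dhh, Sox10 and Sry at 0, and the adrenal gland, where Cyp17a1 was at 0 in 3 samples. No marker was checked for the epithelial mesonephros. That type was highest in each sample for Krt19 and Aldh1a2, which were used as markers of the coelomic epithelium. Mir17hg, the host transcript of the cluster, was called higher in all 11 types tested of each of the 3 comparisons of a KO sample with a control described below, by 1.46 to 3.85 relative to the median gene on the log2 scale. Between the controls it was higher in 0 of 8 types and lower in 1. The assay does not count mature miRNAs, and where the Mir17hg reads lie with respect to the deleted part was not tested, so that this is no check of the deletion itself.

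The 6 mature miRNAs of the cluster, which lies on chromosome 14, fall into 4 seed families. Their sequences (RefSeq, GRCm38.p6) are shown because the target sites below are defined by them, with the seed in capitals. miR-17-5p and miR-20a-5p share a seed, as do miR-19a-3p and miR-19b-3p.
mmu-miR-17-5p: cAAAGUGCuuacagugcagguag
mmu-miR-20a-5p: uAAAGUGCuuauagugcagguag
mmu-miR-18a-5p: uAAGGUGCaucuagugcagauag
mmu-miR-19a-3p: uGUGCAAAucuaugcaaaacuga
mmu-miR-19b-3p: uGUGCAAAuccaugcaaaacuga
mmu-miR-92a-3p: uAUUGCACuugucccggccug

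In the longest annotated 3′ UTR of each gene (GENCODE M21, mm10), sites were searched as matches to the seed. A site of 8 bases pairs with the whole seed and has an A opposite base 1 of the miRNA, and a site of 7 bases lacks either the A or the match to base 8. Of 17292 genes with a 3′ UTR, 43.3% held a site of any kind and 12.3% an 8-base site. Each of the 7 genes held 3 to 7 sites, and 6 of them held an 8-base site. Zbtb4 held 7 sites, Bcl2l11 and Cyld 6 each, Mylip and Tgfbr2 4 each, and Rbl2 and E2f1 3 each. In both Tgfbr2 and Zbtb4 a miR-19 site and a miR-17 site overlap and are counted separately. These are matches of letters and were not tested as functional sites. Longer 3′ UTRs hold more such matches, and the 7 genes were chosen as known targets. The shares over all genes are therefore no matched background.

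Among the 7 genes Mylip had the largest ratios of a KO sample over a control in pre-supporting cells, so that its 4 sites are shown, with the matching bases in capitals. Its 8-base sites belong to the miR-92 and miR-19 families, and its miR-17 and miR-18 sites are of 7 bases. All 4 lie on the plus strand of mm10, within the 3′ UTR.
Mylip, miR-18 family, chr13:45410820-45410840: tggcccaaccgtggGCACCTT
Mylip, miR-92 family, chr13:45411696-45411717: gctgacctcatcggGTGCAATA
Mylip, miR-17 family, chr13:45411736-45411756: gaagcctacactgtCACTTTA
Mylip, miR-19 family, chr13:45411810-45411831: tatgcatttgtttcTTTGCACA

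For the other 6 genes the 8-base sites are shown, and for E2f1, which has none, its pair of 7-base miR-17 sites. Bcl2l11, Rbl2, Cyld and Zbtb4 lie on the plus strand and E2f1 and Tgfbr2 on the minus strand of mm10, and each site is written as in the mRNA.
Bcl2l11, miR-17 family, chr2:128160438-128160459: tctccccgactggaGCACTTTA
Bcl2l11, miR-92 family, chr2:128162435-128162456: ttgccactgtacctGTGCAATA
E2f1, miR-17 family, chr2:154560212-154560232: ggtgggctctaactGCACTTT
E2f1, miR-17 family, chr2:154559697-154559717: ccaccctccagtctGCACTTT
Rbl2, miR-17 family, chr8:91123137-91123158: ctgtgtaattggtgGCACTTTA
Tgfbr2, miR-17 family, chr9:116090073-116090094: agccaataacgtttGCACTTTA
Cyld, miR-17 family, chr8:88748473-88748494: tgttatttttaaagGCACTTTA
Zbtb4, miR-17 family, chr11:69781257-69781278: aaatcttgtttctgGCACTTTA
Zbtb4, miR-18 family, chr11:69780514-69780535: ttgcctccaaaataGCACCTTA

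Levels are given as CPM, the UMIs of a gene per 1000000 UMIs of all genes, after summing the cells of a type in a sample. Because 3′ counting captures mRNAs unequally, levels were compared between cell types and samples and not between genes. Ranks of cell types within a sample were taken among types with at least 50 cells in it. In the XY control the 7 genes were distributed over the cell types in different ways (plot of levels by cell type). E2f1, a transcription factor that drives genes of DNA replication, was highest in germ cells, at 60.8 CPM (55.1 to 66.8), and the next type, adenosympathic cells at 40.2 CPM (32.6 to 49.1), lay clear of it. Germ cells ranked first for E2f1 in 4 of 4 samples among types of at least 50 cells. In the E11.5 KO their interval, at 71.4 CPM (60.3 to 83.9), overlapped that of immune cells at 69.3 CPM (49.3 to 94.8). Tgfbr2, the type II receptor that binds TGF-beta ligands, was highest in endothelial cells in 4 of 4 samples. It was at 164 CPM (153 to 175) in endothelial cells of the XY control, far above the next type, interstitial progenitors at 26.3 CPM (21.9 to 31.4).

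Rbl2 encodes p130, a pocket protein that holds E2F target genes silent in resting cells. It ranked first in supporting-like cells in 4 of 4 samples, at 20.1 CPM (15.3 to 26.1) in the XY control, but the interval overlapped that of the next type, interstitial progenitors at 17.5 CPM (13.9 to 21.7). Mylip, Zbtb4, Tgfbr2, Rbl2 and Cyld were lowest in germ cells in 4 of 4 samples among types of at least 50 cells. Germ cells of the XY control held 2.44 CPM (1.42 to 3.90005) of Mylip and 0.4299 CPM (0.0886 to 1.26) of Zbtb4. For Bcl2l11, which encodes the pro-apoptotic BH3-only protein BIM, the order was less distinct. Interstitial progenitors at 74.4 CPM (66.8 to 82.5), mesonephric tubules at 65.1 CPM (59.99 to 70.6), mesonephros at 59.5 CPM (57.2 to 61.8) and adrenal gland at 58.6 CPM (46.5 to 72.9) led, and the interval of each overlapped the next. Cyld encodes a deubiquitinase that restrains NF-kappaB signalling. From adenosympathic cells at 31.1 CPM (24.5 to 38.99) down to coelomic epithelium at 16.2 CPM (13.9 to 18.8) each type overlapped the next for Cyld in the XY control, and germ cells at 7.74 CPM (5.81 to 10.1) lay apart.

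**Figure D1:**
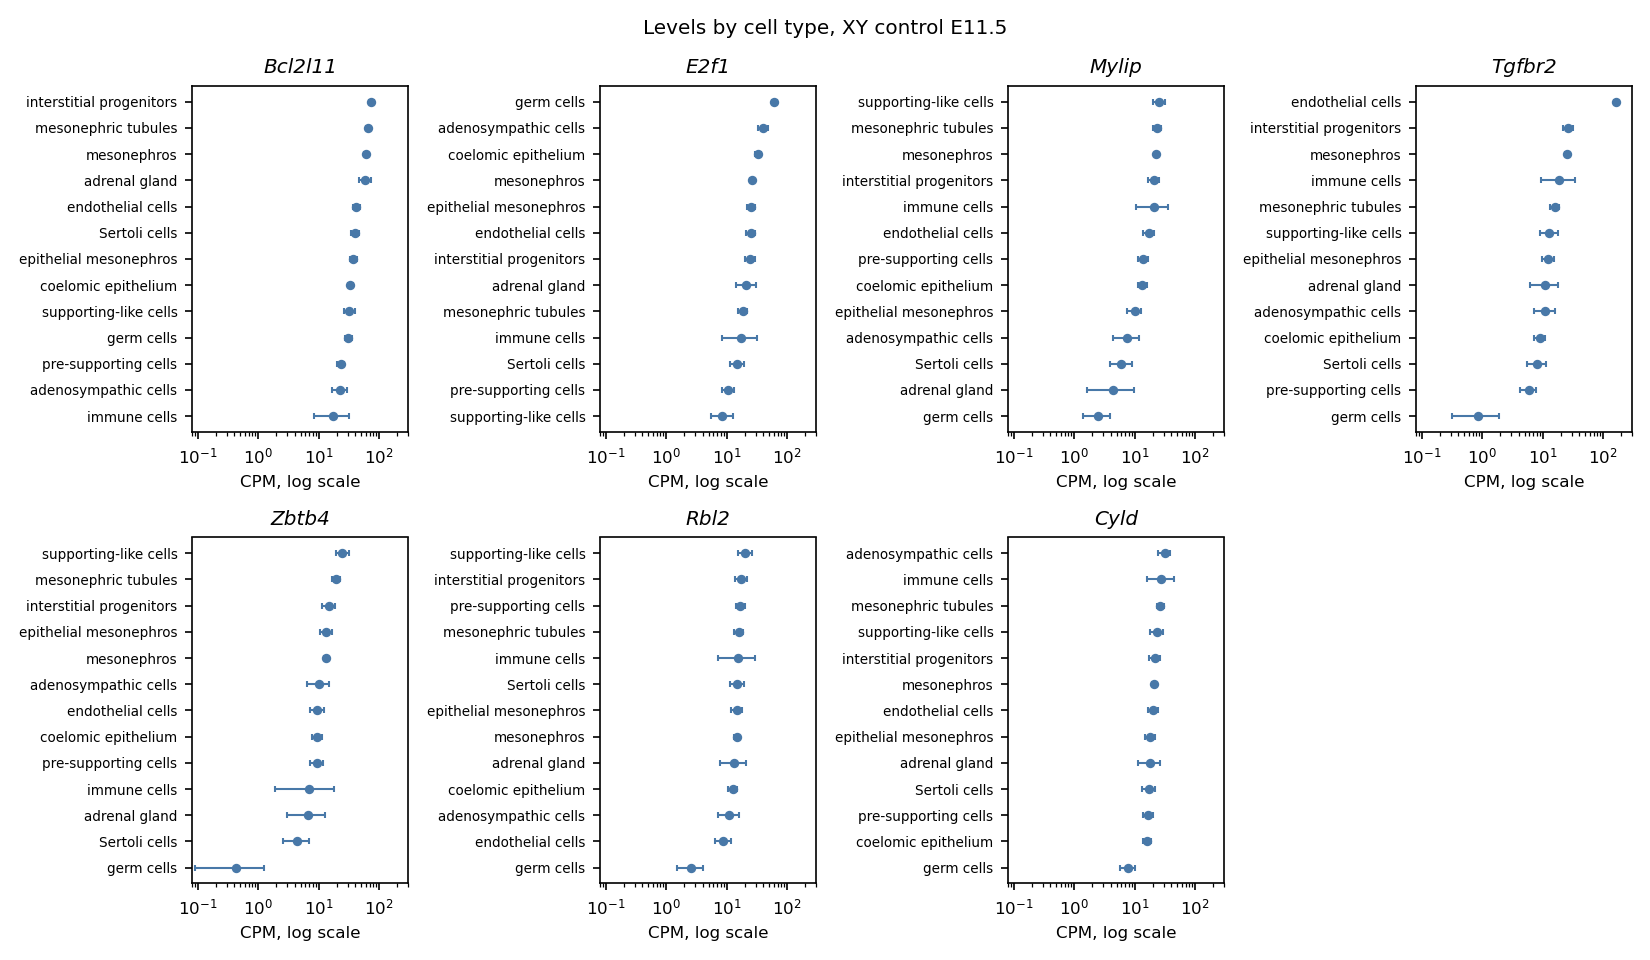
CPM of each of the 7 genes (log axis) in the 13 cell types of the XY control, ordered within each panel by level; points are summed UMIs scaled to CPM and bars are exact Poisson 95% intervals. E2f1 leads in germ cells at 60.8 CPM and Tgfbr2 in endothelial cells at 164 CPM, and germ cells are last for 5 of the 7 genes.

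The question of the comparison was whether transcripts that miR-17~92 is known to repress were more abundant where the cluster was deleted. It was asked first in pre-supporting cells, the bipotential progenitors of Sertoli and granulosa cells, of which there were 1641 in the XY control, 1084 in the E11.5 KO, 924 in the E11.75 KO and 352 in the XX control. A gene was called higher or lower where its log2 ratio of CPM lay at least 0.5 above or below the median gene of the same comparison and type, provided that both samples together held at least 100 of its UMIs. This distance to the median gene is called the relative ratio below. The median gene itself was at -0.09 in E11.5 KO over XY control, 0.19 in E11.75 KO over XY control, 0.02 in E11.5 KO over XX control and -0.11 in XX control over XY control. Stage and deletion cannot be told apart in E11.75 KO over XY control, nor can deletion, sex, breeding, depth and filtering in E11.5 KO over XX control. A lower level of a transcript per cell and fewer cells with it within a type cannot be told apart in such sums.

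In pre-supporting cells, Mylip was called higher in each of the 3 comparisons of a KO sample with a control, and it was the only one of the 7 genes for which this was so. Of the 6 genes that passed the minimum, 1 (Mylip) was called higher in E11.5 KO over XY control, against 5.9% of 9725 genes. In E11.75 KO over XY control 4 were called higher (Mylip, Zbtb4, E2f1 and Cyld), against 12.8% of 9742 genes. There were 2 higher calls (Mylip and E2f1) in E11.5 KO over XX control, against 10.1% of 9412 genes. Between the controls, XX over XY, 0 were called higher, against 4.6% of 9795 genes. None of the 6 was called lower in these 4 comparisons, where 7.54%, 18.1%, 9.85% and 7.46% of the same genes were. Tgfbr2 did not pass the minimum in any of them. Over all 7 genes the median relative ratio was 0.11, 0.69, 0.36 and -0.26 in the same order, beside 0 for all genes by construction.

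**Figure D2:**
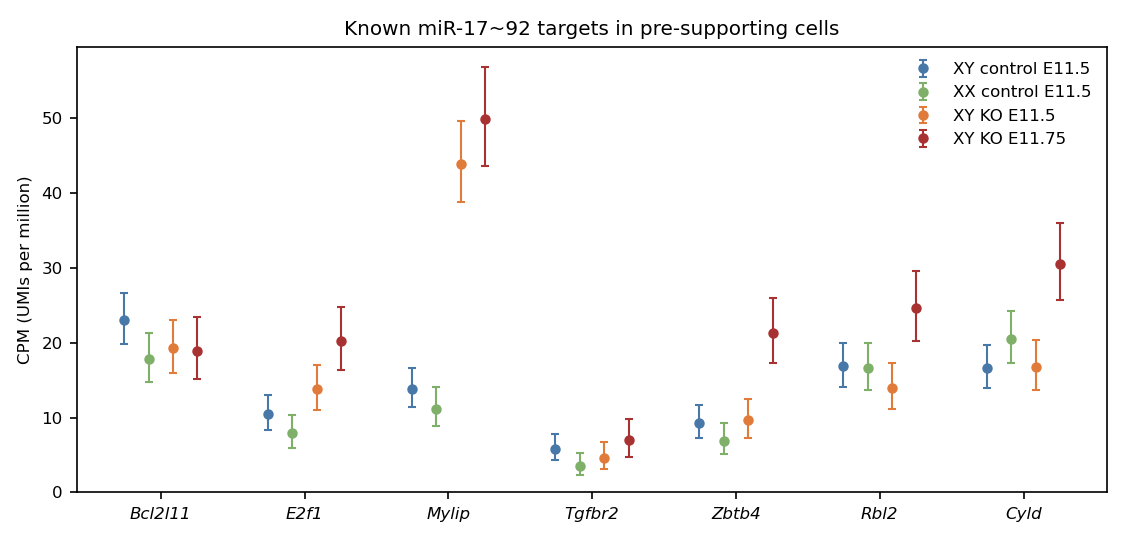
CPM of the 7 genes in pre-supporting cells of the 4 samples, with exact Poisson 95% intervals. Mylip stands at 43.95 and 49.9 CPM in the KO samples and at 11.2 and 13.8 CPM in the controls, while Zbtb4, Rbl2 and Cyld stand highest in the E11.75 KO, apart from the other 3 samples.

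Mylip encodes an E3 ubiquitin ligase with a FERM domain, which marks other proteins for degradation. In pre-supporting cells it was at 13.8 CPM (11.4 to 16.7, 109 UMIs) in the XY control, 11.2 CPM (8.83 to 14.03, 76 UMIs) in the XX control, 43.95 CPM (38.8 to 49.6, 265 UMIs) in the E11.5 KO and 49.9 CPM (43.6 to 56.8, 229 UMIs) in the E11.75 KO. The intervals of the controls overlapped, those of the KO samples overlapped, and the KO samples lay clear of the controls. Of the 5 markers of pre-supporting cells, Sprr2d and Gadd45g separated the samples along the same line, in the opposite direction. Sprr2d was at 92.3 CPM in the XY control, 245 CPM in the XX control, 17.4 CPM in the E11.5 KO and 10.9 CPM in the E11.75 KO, and Gadd45g at 1004, 1162, 877 and 629 CPM in the same order. Wnt4, at 539, 756, 712 and 753 CPM, Nr5a1, at 162, 100.3, 140.5 and 217 CPM, and Runx1, at 196, 237, 150.3 and 226 CPM, did not separate them so. The part of these markers in the values of pre-supporting cells was not tested. The relative ratio was 1.76 (1.43 to 2.10) in E11.5 KO over XY control, 1.66 (1.33 to 2.01) in E11.75 KO over XY control and 1.94 (1.57 to 2.34) in E11.5 KO over XX control. Between the controls, XX over XY, it was -0.19 (-0.64 to 0.24). Mylip stood above 99.9%, 99.6% and 99.8% of the tested genes in the 3 comparisons of a KO sample.

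E2f1 was at 10.5 CPM (8.38 to 13.1, 83 UMIs) in the XY control, 7.96 CPM (5.98 to 10.4, 54 UMIs) in the XX control, 13.8 CPM (10.96 to 17.1, 83 UMIs) in the E11.5 KO and 20.3 CPM (16.4 to 24.8, 93 UMIs) in the E11.75 KO. Both KO samples had higher values than the controls, but the intervals of the E11.5 KO and the XY control overlapped. The relative ratio was 0.48 (0.02 to 0.94) in E11.5 KO over XY control, just short of the threshold, 0.76 (0.32 to 1.20) in E11.75 KO over XY control and 0.76 (0.25 to 1.29) in E11.5 KO over XX control. The last call was lost in each technical run alone and among cells of 3000 to 10000 UMIs, where E2f1 held fewer than 100 UMIs.

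Rbl2, the pocket protein gene, was at 16.9 CPM (14.1 to 19.99) in the XY control, 16.7 CPM (13.7 to 20.03) in the XX control, 13.9 CPM (11.1 to 17.2) in the E11.5 KO and 24.6 CPM (20.3 to 29.6) in the E11.75 KO. The 3 samples of E11.5 overlapped and the E11.75 KO lay above them. Its relative ratio was -0.18 (-0.60 to 0.22) in E11.5 KO over XY control, 0.36 (-0.01 to 0.73) in E11.75 KO over XY control and -0.28 (-0.71 to 0.14) in E11.5 KO over XX control, and no call was made.

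Zbtb4 encodes a zinc finger repressor that binds methylated DNA. It was at 9.26 CPM (7.26 to 11.6, 73 UMIs) in the XY control, 6.93 CPM (5.09 to 9.22, 47 UMIs) in the XX control, 9.62 CPM (7.305 to 12.4, 58 UMIs) in the E11.5 KO and 21.4 CPM (17.3 to 26.02, 98 UMIs) in the E11.75 KO. The 3 samples of E11.5 overlapped, and the E11.75 KO stood apart. The relative ratio of Zbtb4 was 0.15 (-0.38 to 0.66) in E11.5 KO over XY control, 1.02 (0.57 to 1.48) in E11.75 KO over XY control and 0.45 (-0.13 to 1.04) in E11.5 KO over XX control. Cyld, the deubiquitinase gene, was at 16.6 CPM (13.9 to 19.7) in the XY control, 20.5 CPM (17.2 to 24.2) in the XX control, 16.8 CPM (13.6 to 20.4) in the E11.5 KO and 30.5 CPM (25.7 to 35.998) in the E11.75 KO, so that again the E11.75 KO alone stood apart. Its relative ratio was 0.11 (-0.28 to 0.49) in E11.5 KO over XY control, 0.69 (0.34 to 1.05) in E11.75 KO over XY control and -0.31 (-0.70 to 0.07) in E11.5 KO over XX control.

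Bcl2l11 was not called in any comparison of these cells. It was at 23.1 CPM (19.9 to 26.7) in the XY control, 17.8 CPM (14.8 to 21.3) in the XX control, 19.2 CPM (15.9 to 23.1) in the E11.5 KO and 18.96 CPM (15.2 to 23.4) in the E11.75 KO, and each interval overlapped the others. Its relative ratio in E11.75 KO over XY control was -0.47 (-0.85 to -0.09), that is, below the median gene. Tgfbr2 was at 5.83 CPM (4.27 to 7.78, 46 UMIs) in the XY control, 3.54 CPM (2.27 to 5.27, 24 UMIs) in the XX control, 4.64 CPM (3.09 to 6.71, 28 UMIs) in the E11.5 KO and 6.97 CPM (4.77 to 9.84, 32 UMIs) in the E11.75 KO, and its intervals overlapped in all 4 samples.

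The technical runs of 1 sample are separate libraries. They give a measure of counting and technical noise, with that between libraries of a sample, but without the spread between embryos or pools. In pre-supporting cells, the relative ratio of run 2 over run 1 ranged from -0.55 to 0.55 over the 7 genes in the 3 samples with 2 runs, and 3 of 21 values passed 0.5 in either direction (E2f1 in the XY control and Tgfbr2 in the E11.5 KO and the XX control). In 0 of the 21 did the 95% interval lie clear of the median gene. The value of 0.48 for E2f1 in E11.5 KO over XY control lay within this range. Whether any ratio exceeds the spread between embryos or pools was not tested.

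E11.5 KO over XX control and E11.75 KO over XY control share no sample. Of the 6 genes tested in both, Mylip and E2f1 were called higher in both, which are 2 of the 2 called in the first and 2 of the 4 called in the second. Of 9282 genes tested in both, 338 (3.64%) were called higher in both, which are 36.3% of the 930 called in the first and 31.3% of the 1080 called in the second. The other comparisons share a sample and are given side by side only.

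Over the 13 cell types, Mylip made up every higher call of the E11.5 KO against the XY control, whereas calls in the E11.75 KO were spread over all 7 genes (colour plot of ratios by cell type). Of 56 pairs of gene and type that passed the minimum in E11.5 KO over XY control, 6 were called higher, against 5.32% of all 104824 such pairs in the table. Among the 48 pairs of the 6 genes other than Mylip 0 were called higher and 3 lower, beside 6.43% of all pairs lower. In E11.75 KO over XY control 27 of 53 pairs were called higher, against 12.3% of all 98955 pairs, and 0 were called lower, against 16.7%. Without Mylip these were 20 of 45 pairs. Higher calls were made in 14 of 50 pairs and lower calls in 3 in E11.5 KO over XX control, against 10.1% and 6.62% of 91103 pairs, and without Mylip 7 of 42 were higher. Between the controls 2 of 52 pairs were called higher and 10 lower in XX over XY, against 6.43% and 9.69% of 104792 pairs, and 1 of the lower calls was of Bcl2l11 in the 2 Sertoli cells of the XX control.

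**Figure D3:**
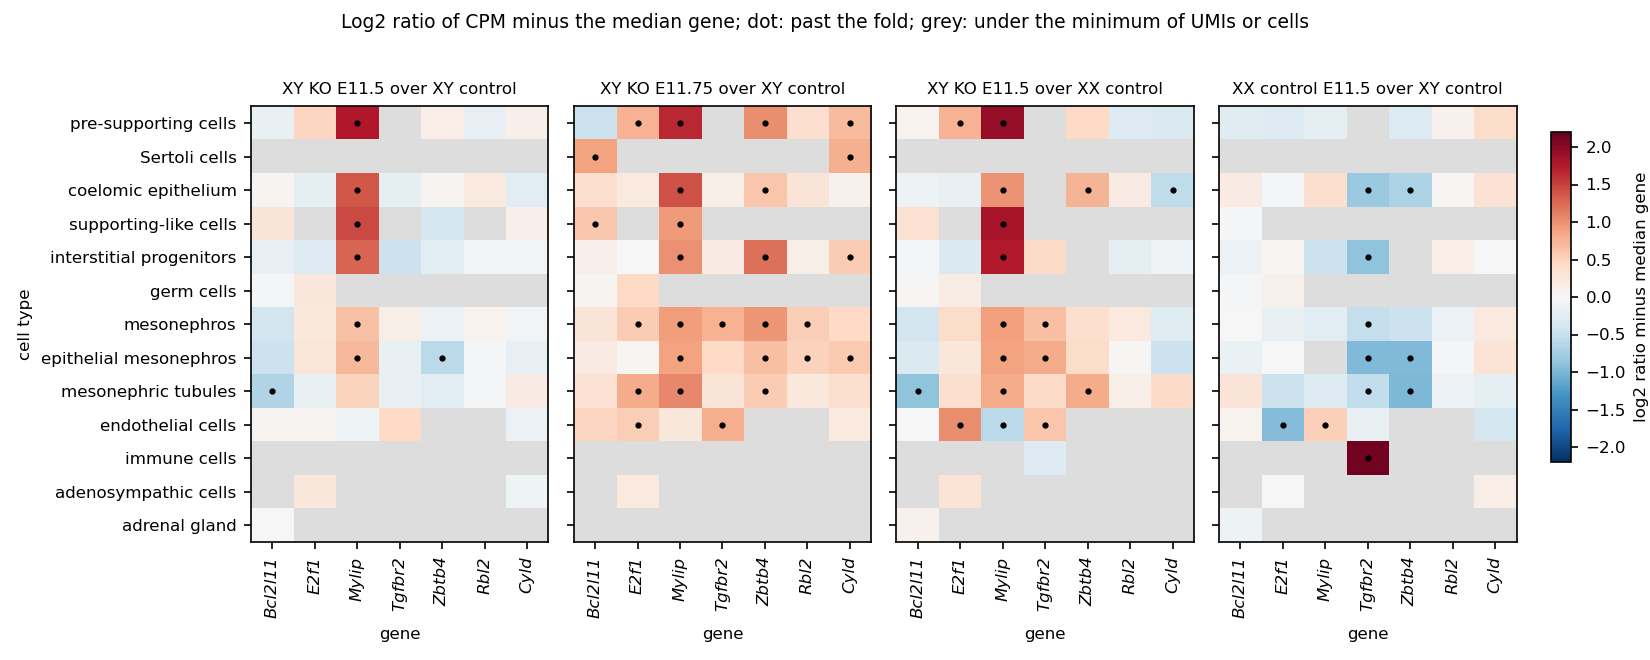
Log2 ratio of CPM minus the median gene (colour) for the 7 genes in the 13 cell types and the comparisons; dots mark values at least 0.5 from the median gene, and types with under 50 cells in a sample and pairs under 100 UMIs are grey. In E11.5 KO over XY control Mylip holds all 6 higher calls, whereas in E11.75 KO over XY control each of the 7 genes has at least 2 of the 27.

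Mylip was higher in 6 of 8 tested types in E11.5 KO over XY control, and in 7 of 8 both in E11.75 KO over XY control and in E11.5 KO over XX control. Its relative ratio in E11.5 KO over XY control was highest in pre-supporting cells, followed by supporting-like cells at 1.45 (1.04 to 1.89), coelomic epithelium at 1.37 (1.08 to 1.66) and interstitial progenitors at 1.27 (0.93 to 1.63), and these 4 intervals overlapped. In the mesonephros it was 0.65 (0.53 to 0.77), below the intervals of those 4 types, and in the epithelial mesonephros 0.71 (0.28 to 1.17). In mesonephric tubules it was 0.50 (0.20 to 0.79), which rounds to the threshold but lay just under it.

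Endothelial cells stood apart from this order. There, Mylip was at 17.1 CPM (13.9 to 20.98, 94 UMIs) in the XY control, 21.8 CPM (16.4 to 28.5, 54 UMIs) in the XX control, 15.6 CPM (11.6 to 20.5, 50 UMIs) in the E11.5 KO and 22.4 CPM (14.5 to 33.003, 25 UMIs) in the E11.75 KO, and all 4 intervals overlapped. The relative ratio of Mylip in endothelial cells was -0.10 (-0.63 to 0.41) in E11.5 KO over XY control, an interval below those of the mesonephros and of the 4 types above it, and in E11.5 KO over XX control Mylip was called lower at -0.60 (-1.18 to -0.01). Mylip was also called higher there in XX control over XY control, at 0.52 (0.00 to 1.01). Markers of endothelial cells, given below, also differed between the samples, and their part in the Mylip values was not tested. Germ cells held 6 to 17 UMIs of Mylip per sample and did not pass the minimum. Sertoli cells did not pass it either, with Mylip at 6.02 CPM (3.896 to 8.89, 25 UMIs) in the XY control and 24.4 CPM (15.8 to 35.9, 25 UMIs) in the E11.75 KO. Nor did immune cells, adenosympathic cells or the adrenal gland in any comparison of a KO sample.

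**Figure D4:**
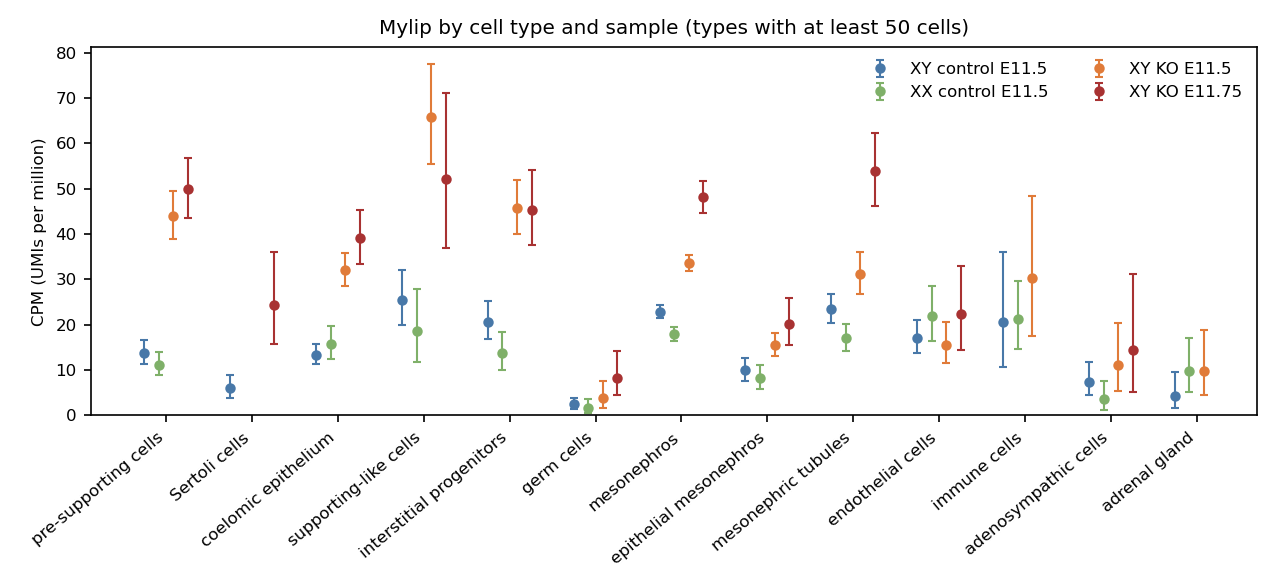
CPM of Mylip in the cell types of the 4 samples, with exact Poisson 95% intervals and without types of under 50 cells in a sample. In pre-supporting cells the KO samples are at 43.95 and 49.9 CPM and the controls at 13.8 and 11.2 CPM, whereas in endothelial cells the E11.5 KO, at 15.6 CPM, is the lowest of the 4 samples.

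Zbtb4 was higher in 6 of 6 tested types in E11.75 KO over XY control, with relative ratios from 0.56 (0.20 to 0.91) in mesonephric tubules to 1.21 (0.75 to 1.67) in interstitial progenitors. Among markers of interstitial progenitors, Pdgfra, at 753 against 322 CPM, and Nr2f2, at 827 against 538 CPM, had higher values in the E11.75 KO than in the XY control and Tcf21, at 439.5 against 539 CPM, a lower one, and their part was not tested. It was higher in 0 of 7 tested types in E11.5 KO over XY control, with values from -0.59 to 0.15, and it was lower in the epithelial mesonephros. In the mesonephros, where its counts were largest, Zbtb4 was at 13.2 CPM (12.1 to 14.3) in the XY control, 8.67 CPM (7.63 to 9.82) in the XX control, 11.3 CPM (10.4 to 12.4) in the E11.5 KO and 28.5 CPM (25.8 to 31.4) in the E11.75 KO. The E11.75 KO was the only sample above the XY control there. Between the controls Zbtb4 was lower in XX in 3 of 5 tested types. Its 2 calls in E11.5 KO over XX control, in coelomic epithelium at 0.75 (0.12 to 1.48) and mesonephric tubules at 0.81 (0.35 to 1.28), lay in such types.

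Calls of Tgfbr2 also differed with the control. In the mesonephros it was at 25.02 CPM (23.5 to 26.6) in the XY control, 15.9 CPM (14.5 to 17.4) in the XX control, 25.5 CPM (24.001 to 27.02) in the E11.5 KO and 47.2 CPM (43.8 to 50.9) in the E11.75 KO. The E11.5 KO and the XY control overlapped, the XX control lay below them and the E11.75 KO above. Of the 3 markers of the mesonephros, Pdgfra followed the same order. Its CPM was 215 in the XY control, 155 in the XX control, 241 in the E11.5 KO and 429 in the E11.75 KO. Pdgfra was highest in interstitial progenitors in each sample. Its part in the values of Tgfbr2, Zbtb4 and Rbl2 in the mesonephros was not tested. In endothelial cells, where it is most abundant, Tgfbr2 was at 164 CPM (153 to 175) in the XY control, 131 CPM (117 to 146) in the XX control, 217 CPM (201 to 233) in the E11.5 KO and 318 CPM (286 to 353) in the E11.75 KO. These 4 intervals did not overlap, and both KO samples lay above both controls. Of the 3 endothelial markers, Pecam1 and Cdh5 followed the same order of samples. Pecam1 was at 510.2 CPM in the XY control, 364 CPM in the XX control, 639 CPM in the E11.5 KO and 909 CPM in the E11.75 KO, and Cdh5 at 656, 552, 681 and 863 CPM in the same order. Kdr, at 563, 416, 500.3 and 799 CPM, did not lie above the XY control in the E11.5 KO. The part of the endothelial markers in the Tgfbr2 values was not tested. The relative ratio of Tgfbr2 in endothelial cells was 0.44 (0.29 to 0.58) in E11.5 KO over XY control, under the threshold but clear of the median gene, 0.80 (0.62 to 0.98) in E11.75 KO over XY control and 0.61 (0.42 to 0.81) in E11.5 KO over XX control. Immune cells differed between the controls, with Tgfbr2 at 18.9 CPM (9.44 to 33.8, 11 UMIs) in the XY control and 83.8 CPM (70.2 to 99.2, 134 UMIs) in the XX control, from 220 and 74 cells. The KO samples, at 69.3 CPM (49.3 to 94.8) in the E11.5 KO and 118 CPM (77.7 to 172) in the E11.75 KO, lay with the XX control there. Immune cells of the XY control also differed in markers and depth. Their level of Ptprc, the common leukocyte antigen, was 89.4 CPM against 170.6, 170.4 and 234 CPM in the E11.5 KO, the E11.75 KO and the XX control. The macrophage genes C1qa and Csf1r were at 67.1 and 84.3 CPM in the XY control, against 536 to 917 CPM and 311 to 572 CPM in the other 3 samples. The median depth of these cells was 1488 UMIs in the XY control and 5769.5 to 18870.5 UMIs in the others. The part of these differences in the Tgfbr2 values was not tested.

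E2f1 was higher in 4 of 9 tested types in E11.75 KO over XY control, namely pre-supporting cells, endothelial cells at 0.54 (0.01 to 1.02), mesonephric tubules at 0.81 (0.46 to 1.15) and the mesonephros at 0.56 (0.41 to 0.70). In germ cells, where it is most abundant, the value was 0.43 (0.15 to 0.70), under the threshold. Markers of endothelial cells, mesonephric tubules and the mesonephros, given above or below, were also higher in the E11.75 KO than in the XY control. Their part in the E2f1 values was not tested. E2f1 was higher in 0 of 9 types in E11.5 KO over XY control, with intervals above the median gene in pre-supporting cells and in the mesonephros, at 0.23 (0.11 to 0.34). Its second call in E11.5 KO over XX control was in endothelial cells at 1.03 (0.41 to 1.72), where the XX control was also lower than the XY control, at -0.96 (-1.62 to -0.39).

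Cyld was higher in 4 of 8 tested types in E11.75 KO over XY control and in 0 of 9 in E11.5 KO over XY control. Beside pre-supporting cells these were Sertoli cells, whose markers differed as given with Bcl2l11 below, at 0.78 (0.13 to 1.38), the epithelial mesonephros at 0.57 (0.16 to 0.98) and interstitial progenitors at 0.56 (0.14 to 0.98). In coelomic epithelium Cyld was lower in E11.5 KO over XX control, at -0.56 (-0.96 to -0.15). Rbl2 was higher in 2 of 6 tested types in E11.75 KO over XY control and in 0 of 6 in E11.5 KO over XY control. In the mesonephros Rbl2 was at 14.5 CPM (13.4 to 15.7) in the XY control, 12.2 CPM (10.98 to 13.6) in the XX control, 14.3 CPM (13.2 to 15.5) in the E11.5 KO and 23.5 CPM (21.05 to 26.1) in the E11.75 KO, and only the E11.75 KO lay above the XY control.

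Bcl2l11 was called lower in the E11.5 KO in mesonephric tubules, against either control. It was at 65.1 CPM (59.99 to 70.6, 590 UMIs) in the XY control, 70.2 CPM (64.4 to 76.3, 547 UMIs) in the XX control, 38.96 CPM (34.1 to 44.3, 234 UMIs) in the E11.5 KO and 89.3 CPM (79.5 to 99.9, 302 UMIs) in the E11.75 KO. The E11.5 KO was below both controls and the E11.75 KO above both. Of the 4 markers of mesonephric tubules, Gata3 and Wnt9b moved in the same way. Gata3 was at 122 CPM in the XY control, 90.98 CPM in the XX control, 49.4 CPM in the E11.5 KO and 178 CPM in the E11.75 KO, and Wnt9b at 90.9, 48.8, 29.3 and 100.2 CPM in the same order. Pax2, at 159, 105, 139 and 264 CPM, and Emx2, at 254, 187, 236 and 294 CPM, were lowest in the XX control and highest in the E11.75 KO. The part of the tubule markers in the Bcl2l11 values was not tested. The relative ratio of Bcl2l11 in mesonephric tubules was -0.66 (-0.88 to -0.44) in E11.5 KO over XY control and -0.89 (-1.12 to -0.67) in E11.5 KO over XX control. In the mesonephros Bcl2l11 was at 59.5 CPM (57.2 to 61.8) in the XY control, 55.2 CPM (52.5 to 57.9) in the XX control, 42.1 CPM (40.2 to 44.1) in the E11.5 KO and 79.9 CPM (75.4 to 84.6) in the E11.75 KO, again lowest in the E11.5 KO and highest in the E11.75 KO, but its ratios did not reach the threshold. Hoxd9, used as a marker of the mesonephros, moved in the same way, at 51.1, 52.97, 34.5 and 66.5 CPM in the same order of samples. It was highest in coelomic epithelium in each sample, and its median over the other types moved likewise, at 25.9, 21.8, 13.4 and 33.9 CPM. Pdgfra, at 215, 155, 241 and 429 CPM, was not lowest in the E11.5 KO, and Osr1 lay between 23.03 and 27.8 CPM. The part of Hoxd9 in the Bcl2l11 values was not tested. In the epithelial mesonephros Bcl2l11 was at 37.1 CPM (32.4 to 42.2) in the XY control and 30.9 CPM (26.1 to 36.4) in the XX control. It was at 25.4 CPM (22.3 to 28.8) in the E11.5 KO and 46.1 CPM (38.9 to 54.2) in the E11.75 KO there, and no call was made. The lower call of Bcl2l11 in Sertoli cells of the E11.5 KO, against the XY control, rested on 3 UMIs in 24 cells. Its interval held the median gene (-0.69, with bounds of -3.20 and 0.66). In Sertoli cells of the E11.75 KO, of which there were 168, Bcl2l11 was at 79.9 CPM (63.5 to 99.1) against 39.5 CPM (33.7 to 46.02) in the XY control, a call of higher at 0.88 (0.47 to 1.27). The Sertoli markers differed in that comparison too. In the E11.75 KO against the XY control, Amh was at 34.1 against 71.996 CPM, Dhh at 42.9 against 116 CPM, Sox10 at 11.69 against 31.1 CPM, Sox9 at 790.01 against 944 CPM and Sry at 14.6 against 10.1 CPM. Their part in the Sertoli cell values of Bcl2l11, Cyld and Mylip was not tested.

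The length of the 3′ UTR moved with the ratios in the E11.75 KO (plot of ratio against 3′ UTR length). The genes tested in pre-supporting cells were divided into 4 equal classes by the length of the 3′ UTR. In E11.75 KO over XY control the median relative ratio was -0.31 in the class of the shortest 3′ UTRs, -0.06 and 0.10 in the next 2 and 0.22 in the class of the longest, where 23.1% of genes were called higher. The same medians were 0.04, 0.02, -0.02 and -0.04 in E11.5 KO over XY control. Bcl2l11 (4218 bases), Tgfbr2 (6085 bases), Zbtb4 (4622 bases) and Cyld (4932 bases) belong to the longest class, and E2f1 (1281 bases), Mylip (1512 bases) and Rbl2 (1398 bases) to the class next below it. Within the longest class, 744 genes with an 8-base site had a median of 0.27 and 371 genes with no site one of 0.15 in E11.75 KO over XY control, and 27.7% and 18.9% were called higher. Those medians were -0.04 and -0.03 in E11.5 KO over XY control. In E11.5 KO over XX control they were 0.04 and 0.06, and 13.8% and 9.14% were called higher. Length was not matched within the class. It reached 122583 bases among genes with an 8-base site and 10465 bases among those with no site. The part of 3′ UTR length in the ratios of the 7 genes was not tested.

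**Figure D5:**
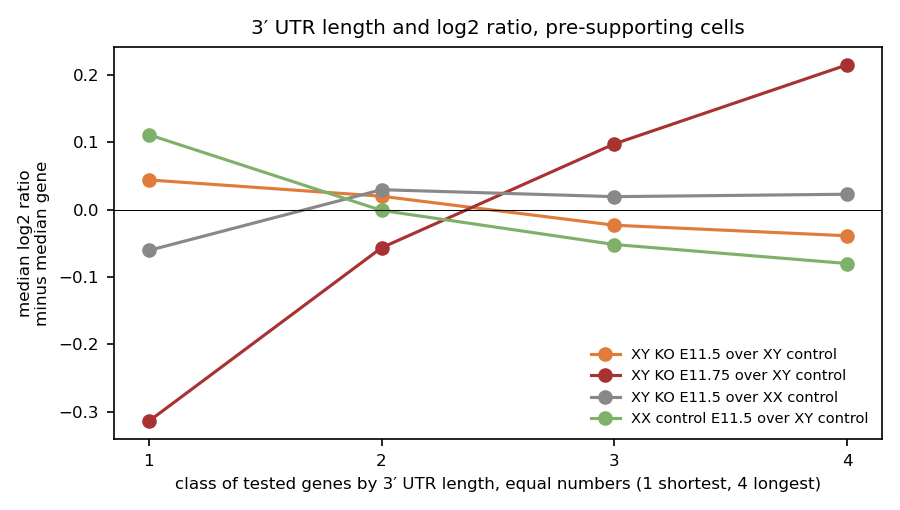
Median log2 ratio minus the median gene in pre-supporting cells for 4 classes of the tested genes by 3′ UTR length, in 4 comparisons. E11.75 KO over XY control climbs from -0.31 to 0.22, and the other comparisons stay between -0.08 and 0.11.

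Other known targets of the cluster were read in pre-supporting cells from a list of 48 genes written from general knowledge. Some of them held no site in the 3′ UTR searched here. Of the listed genes, 47 were in the table. Of these, 39 passed the minimum in E11.5 KO over XY control, 2 were called higher and 3 lower, beside 5.9% and 7.54% of all genes, and the median relative ratio was -0.05. Cdkn1a, an inhibitor of cyclin-dependent kinases, was higher at 0.78 (0.63 to 0.92), and Socs3, which dampens cytokine signalling, at 0.64 (0.20 to 1.08). Cdkn1a stood at 89.04 CPM in the XY control, 158 CPM in the XX control, 143 CPM in the E11.5 KO and 131 CPM in the E11.75 KO. Its call thus went with a low level in the XY control, whereas Socs3 was called higher against the XX control too. Socs3 was not called in E11.75 KO over XY control, at 0.23 (-0.26 to 0.71). Jak1 and Stat3, the kinase and the transcription factor of cytokine receptors, were lower at -1.13 (-1.29 to -0.97) and -0.84 (-1.17 to -0.53), as was the estrogen receptor gene Esr1 at -0.78 (-1.45 to -0.17). Stat3 stood at 36.9, 22.4 and 19.2 CPM in the XY control, the XX control and the E11.5 KO. In the same samples Esr1 stood at 9.51, 5.16 and 5.14 CPM, so that both calls went with a high level in the XY control. In E11.75 KO over XY control 10 of 40 were called higher and 2 lower, beside 12.8% and 18.1% of all genes, with a median of 0.16. Ccnd1 at 1.71 (1.52 to 1.90) and Ccnd2 at 1.04 (0.95 to 1.13), cyclins that take cells through G1, had the largest values. Esr1, Limk1, Txnip, Phlpp2, Trp53inp1, Rbl1, Itga5 and Klf4 were higher by 0.50 to 0.95, and Jak1 at -1.05 (-1.22 to -0.89) and Bambi at -0.51 (-0.64 to -0.37) were lower.

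In E11.5 KO over XX control 5 of 38 of these targets were called higher (Ccnd1, Vegfa, Socs3, Bambi and Ccnd2) and 3 lower (Jak1, Cdkn1c and Runx1), beside 10.1% and 9.85% of all genes, with a median of 0.03. Between the controls 2 of 40 were higher in XX (Cdkn1a and Txnip) and 6 lower (Ccnd1, Esr1, Bambi, Stat3, Ccnd2 and Klf2), beside 4.6% and 7.46% of all genes, with a median of -0.12. Ccnd1 stood at 42.9 CPM in the XY control, 17.5 CPM in the XX control, 49.4 CPM in the E11.5 KO and 159.5 CPM in the E11.75 KO, so that its call against the XX control went with a low level in that control. The calls of Ccnd2 and Bambi did so too. Ccnd2 was at 213, 131 and 204.5 CPM in the XY control, the XX control and the E11.5 KO. Bambi was at 186, 102 and 162 CPM in the same samples. Jak1, whose 3′ UTR holds 2 sites, stood at 160.2 CPM in the XY control, 178 CPM in the XX control, 68.7 CPM in the E11.5 KO and 87.8 CPM in the E11.75 KO, below both controls in both KO samples.

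The partners were 43 genes that act beside the 7, mostly of the BCL2, E2F and RB, TGF-beta, NF-kappaB and methyl-binding zinc finger families. Some of them are also on the list of other targets, so that the lists are not separate. Of the 31 tested in E11.5 KO over XY control, 1 was called higher and 1 lower, beside 5.9% and 7.54% of all genes, with a median of 0.06. Both were TGF-beta ligands. Tgfb2 was at 16.1 CPM against 10.1 CPM in the XY control, a relative ratio of 0.76 (0.32 to 1.20). Tgfb1, whose 3′ UTR holds 0 sites, was at 2.82 CPM (17 UMIs) against 14.2 CPM (112 UMIs), a relative ratio of -2.21 (-3.07 to -1.50). In E11.75 KO over XY control 6 of 33 partners were called higher and 5 lower, near the 12.8% and 18.1% of all genes, with a median of -0.01. The higher ones included the co-receptor gene Tgfbr3 at 0.69 (0.37 to 1.02), Tgfb2 at 0.63, the pro-apoptotic Bid at 0.57 and Bmf at 0.57, and the pocket protein gene Rbl1, which is on both lists, at 0.56. Tgfb1 at -1.49, Traf2 at -0.83, Bax at -0.63, Bad at -0.62 and Mcl1 at -0.54 were lower.

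In E11.5 KO over XX control 6 of 29 partners were called higher and 0 lower, beside 10.1% and 9.85% of all genes, with a median of 0.18. They included Bak1 at 0.79, Tgfbr3 at 0.76, Traf2 at 0.62, Smad3 at 0.60 and Tgfb2 at 0.51. Between the controls 0 of 32 were higher and 6 lower in XX over XY, beside 4.6% and 7.46% of all genes, with a median of -0.17. The lower ones included Tgfb1, Traf2, Tgfbr3, Smad3 and Bcl2l1, of which Traf2, Tgfbr3 and Smad3 were also among those called higher against the XX control.

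The genes whose log2 CPM followed each of the 7 most closely were sought over 48 combinations of cell type and sample with at least 50 cells, among 10517 genes with at least 2000 UMIs. The combinations share libraries and depth, so that Pearson's r is a description only. E2f1 was followed by Rpa1 (r = 0.89), Wdhd1 (r = 0.86) and Nup205 (r = 0.85), of which Rpa1 and Wdhd1 encode proteins of DNA replication. Zbtb4 was followed by Wdfy3 (r = 0.95), Zfp865 (r = 0.93) and Acp2 (r = 0.93), and Tgfbr2 by Arhgap31 (r = 0.90), Uvrag (r = 0.88) and Tbkbp1 (r = 0.88). For Rbl2 they were 4931406C07Rik (r = 0.88), Zfp36l1 (r = 0.88) and Fam172a (r = 0.87), and for Cyld Zmynd8 (r = 0.88), Atf6 (r = 0.85) and Hectd4 (r = 0.84). Mylip was followed by Lamp2 (r = 0.82), Dhrs3 (r = 0.82) and Zbtb4 (r = 0.81). Bcl2l11 had the lowest values, with Mkl2 (r = 0.69), Cnksr3 (r = 0.68) and Tmem65 (r = 0.68). Among the 7 genes r ranged from -0.48 for E2f1 and Rbl2 to 0.83 for Zbtb4 and Rbl2.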

How the data were processed

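Per the methods and processing notes, the authors aligned the reads with Cell Ranger 6.1.1 to mm10 with an added Sry exon, filtered XY cells on mitochondrial and beta globin share, UMIs and genes and XX cells by low-quality clusters, removed doublets with DoubletFinder, and named cell types after integration in Seurat. The deposited values are raw UMI counts per gene and cell, and all of them were whole numbers. No cell was removed here. The study's methods list the cell numbers of the KO stages in the reverse order of the cell annotation; the labels were followed, and the sample labelled E11.75 is the one with a single run in the files, as the methods state for E11.75.

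Counts were summed per sample and type. CPM have exact Poisson and ratios exact binomial (Clopper-Pearson) 95% intervals, with a prior count of 0.5 and a floor of 3 counts. With 1 sample per group no test was made, and technical runs were not used as replicates. Alternatives covered scaling (TMM, edgeR 4.0.16 in R 4.3.3), minimum UMIs, fold, prior count, runs and depth. The calling step was tested on simulated counts. Python 3.11.15, numpy 2.4.6 and scipy 1.17.1 were used. Of 21495 symbols, 98.7% were found in GENCODE M21. Named were the 7 genes, Mir17hg, the 3 genes most alike to each, and list genes past the fold, except 1, which like 1 marker gene is not reported here. The 7 genes and the lists were chosen with earlier results of these data known. Antisense and overlapping genes were not separated beyond the authors' counting.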

Additional observations from a re-analysis of the deposited data

Results flagged for a closer look

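For 3 pairs of gene and type the relative ratio lay below the median gene in the E11.5 KO and above it in the E11.75 KO, both over the same XY control, with intervals of counting error that did not reach the median gene in either. Zbtb4 in the epithelial mesonephros, a type for which no marker was checked, was at -0.59 (-1.05 to -0.12) and 0.66 (0.18 to 1.13). Bcl2l11 was at -0.66 (-0.88 to -0.44) and 0.31 (0.10 to 0.51) in mesonephric tubules, and at -0.40 (-0.49 to -0.32) and 0.28 (0.17 to 0.38) in the mesonephros. In mesonephric tubules the markers Gata3 and Wnt9b moved in the same way, from 122 and 90.9 CPM in the XY control to 49.4 and 29.3 CPM in the E11.5 KO and 178 and 100.2 CPM in the E11.75 KO. In the mesonephros Hoxd9, used as a marker but highest in coelomic epithelium, went from 51.1 CPM to 34.5 and 66.5 CPM. The other markers there did not fall in the E11.5 KO, with Pdgfra at 215, 241 and 429 CPM and Osr1 at 23.03, 23.98 and 25.1 CPM. The part of these markers in the Bcl2l11 values was not tested. With 1 sample per group, the difference between the stages was not tested, and stage and sample cannot be told apart.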

How the results depend on the processing

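Of the 13 alternatives tried for each count of higher calls, 12, 11 and 8 left the count in pre-supporting cells within 1.5 times its value (1 in E11.5 KO over XY control, 4 in E11.75 KO over XY control and 2 in E11.5 KO over XX control), and 11, 10 and 7 did so for the pairs of gene and type (6, 27 and 14). With a minimum of 500 UMIs no gene was tested in pre-supporting cells, so that the counts were 0, 0 and 0, and the pairs were 1, 7 and 3. With no minimum the pairs were 24, 44 and 32. The 24 in E11.5 KO over XY control exceed the 13 types, so that they include genes other than Mylip. With a fold of 1 on the log2 scale, 2 genes in pre-supporting cells and 6 pairs were higher in E11.75 KO over XY control, and 1 gene and 4 pairs in E11.5 KO over XX control. In E11.5 KO over XX control the first run alone gave 1 gene and 8 pairs, the second run alone 1 gene and 8 pairs, and cells of 3000 to 10000 UMIs 1 gene and 9 pairs. Fewer UMIs entered these counts by construction. The window of 3000 to 10000 UMIs kept 25 of 352 pre-supporting cells of the XX control and 1000 of 1084 of the E11.5 KO. It therefore cannot show the part of depth in that comparison. Restricting to types with at least 50 cells in both samples, an alternative chosen after seeing the data, left the pairs at 6, 27 and 14. Of 1506 values of single ratios under an alternative, 1461 stayed within the counting interval of the reported value, 45 moved beyond it (20 of them among cells of 3000 to 10000 UMIs) and 0 of the called ones reversed. No paired analysis was possible because each group is 1 sample.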
